A study of Homo sapiens with 12 samples.

Results

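AEN, ANKRA2, APAF1, BTG2, CCNG1, CDKN1A, CYFIP2, DDB2, DRAM1 and EDA2R are 10 genes known to be activated by the transcription factor p53. They were chosen by name and not by a cut on their values, though earlier results of these data were known. All 10 were found among the 4918 genes analysed here, whose symbols run from A1BG to FAM46B. Cells of the established human melanoma line A375 received no treatment (control), SB-3CT, interferon gamma (IFN-γ), or SB-3CT and IFN-γ together, for 24 h. SB-3CT is a small molecule that inhibits the matrix metalloproteinases MMP2 and MMP9, and IFN-γ is a cytokine of activated lymphocytes. RNA was sequenced from 3 samples of each group, 12 in all, and the values are FPKM (fragments counted per kilobase of transcript and scaled to the mapped total), a level that can be compared between genes because it is taken per length. The sample labels give the controls no treatment, while the protocol mentions vehicle, and the doses used for these samples were not given in the sources used here. All samples come from 1 cell line. A figure legend of the study that covers the A375 RNA-seq says its experiments were done 3 independent times. The sample labels do not say whether these 12 samples came from separate cultures. The p-values therefore measure only the spread between these samples, which may be technical.

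In unstressed cells p53 is kept low by MDM2, which marks it for degradation, and it accumulates when DNA is damaged or when growth signals are excessive. It then binds DNA as a tetramer and switches on genes that stop the cell cycle, repair DNA or bring about cell death.

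The 10 genes fall into groups by role. CDKN1A encodes p21, the inhibitor of cyclin-dependent kinases through which p53 halts the cell cycle. BTG2 is an antiproliferative protein that promotes mRNA decay, and CCNG1 is cyclin G1, which acts in feedback on p53. DDB2 recognises ultraviolet damage for nucleotide excision repair. APAF1 is the scaffold of the apoptosome, AEN is a nuclease active in apoptosis, EDA2R is a receptor of the TNF receptor family and CYFIP2 is a subunit of the actin-regulating WAVE complex. DRAM1 is a lysosomal membrane protein that promotes autophagy, and ANKRA2 is an ankyrin repeat protein.

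Because p53 acts through a known DNA element, the surroundings of each start site were searched for it. The p53 consensus consists of a pair of 10-base units. It was sought on the strand of the gene from 2500 bases before to 2500 bases after the start of the canonical transcript (genome GRCh37, which is hg19, with GENCODE annotation), with a spacer of at most 1 base and at most 2 mismatches outside the fixed C and G of each unit. A match was found for 6 of the 10 genes. They are shown so that the letters can be set beside the behaviour of each gene. Sequences run 5′ to 3′ and the capitals mark the central bases of each unit, from the fixed C to the fixed G:
CDKN1A: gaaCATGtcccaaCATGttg
BTG2: acgCATGttcaggCATGcat
AEN: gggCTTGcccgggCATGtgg
CCNG1, intron 1: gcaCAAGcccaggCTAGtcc
CCNG1, intron 2: gacCTAGtcaagaCTTGctt
DDB2, across the edge of exon 1: aagCTGGtttgaaCAAGccc
DDB2, in exon 1: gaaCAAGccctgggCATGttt
EDA2R, intron 1, nearer the start: gaaCATGcctggaCGTGtcc
EDA2R, intron 1, farther in: gggCAAGtcagggCTTGtgt

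By this annotation CDKN1A spans chr6:36644237-36655114 with 3 exons, BTG2 chr1:203274619-203278730 with 2, AEN chr15:89164568-89175512 with 4, CCNG1 chr5:162864575-162873157 with 7, and DDB2 chr11:47236016-47260768 with 10, all on the plus strand. EDA2R spans chrX:65815479-65859140 on the minus strand, with 7 exons. The match of CDKN1A lies upstream of the canonical start, at -2265 (chr6:36644226-36644245, plus strand), where it overlaps the edge of the annotated gene, that of BTG2 at -1877 (chr1:203272770-203272789, plus strand) and that of AEN at -34 (chr15:89164537-89164556, plus strand), each with 2 mismatches. In CCNG1 they lie at 331 (chr5:162864932-162864951, plus strand, 1 mismatch) and at 2351 (chr5:162866952-162866971, plus strand, 2 mismatches). In DDB2 the matches overlap each other, at -5 (chr11:47236520-47236539, plus strand, 1 mismatch) and at 5 (chr11:47236530-47236550, plus strand, 0 mismatches, with a spacer of 1 base). In EDA2R they lie at 346 (chrX:65858555-65858574, minus strand, 1 mismatch) and at 496 (chrX:65858405-65858424, minus strand, 2 mismatches). Of the 4875 genes whose start could be placed, 7.7% held a match with at most 2 mismatches, 1.3% one with at most 1 and 0.1% one with none, against 6, 3 and 1 of the 10 p53 target genes. For ANKRA2, APAF1, CYFIP2 and DRAM1 these letters are not in this window.

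Only facts that bear on the 10 genes are given of the libraries. Relative depths were estimated from the most common ratio of low FPKM values between pairs of samples, on the assumption that it reflects equal small read counts. They lay between 87.1% and 150.1% of the control mean. FPKM summed over the 4918 genes ranged from 121928 to 129692, and the 3 samples with SB-3CT and IFN-γ had the highest sums. CXCL10, a classical IFN-γ target, was at 81.7 FPKM ± 3.97 (SD, n = 3) with IFN-γ and 112 FPKM ± 13.7 with both agents, and was at most 0.05 FPKM in every sample without IFN-γ. DCT, EDNRB, CSPG4, AXL and CDH2 were taken as 5 melanoma and melanocyte markers. Their summed level was between 80.8 and 118 FPKM in every sample, lowest with both agents (80.8 to 85.1 FPKM). In the controls CSPG4 (48.5 FPKM) and AXL (41.2 FPKM) made up most of it, while DCT, a pigment cell enzyme, was at most 0.384 FPKM in every sample. Summed markers of epithelial, fibroblast, endothelial and immune cells were at most 1.11, 0.646, 1.72 and 0.332 FPKM.

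All 10 p53 target genes were above 0 in all 12 samples, over a wide range of levels. CDKN1A was the highest, with a mean of 381 FPKM, which placed it at rank 52 of 4918 genes. AEN (56.9 FPKM), DDB2 (51.8 FPKM) and CCNG1 (42.2 FPKM) followed, then BTG2 (14.3 FPKM) and DRAM1 (12.2 FPKM). ANKRA2 (6.31 FPKM), EDA2R (5.28 FPKM), CYFIP2 (3.77 FPKM) and APAF1 (2.26 FPKM) were the lowest. Across the 12 samples CYFIP2, DRAM1, BTG2, APAF1 and CDKN1A varied most, with highest-to-lowest ratios of 2.21, 2.20, 2.08, 2.07 and 2.00, and ANKRA2 and DDB2 least, with 1.3 and 1.31.

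**Figure D1:**
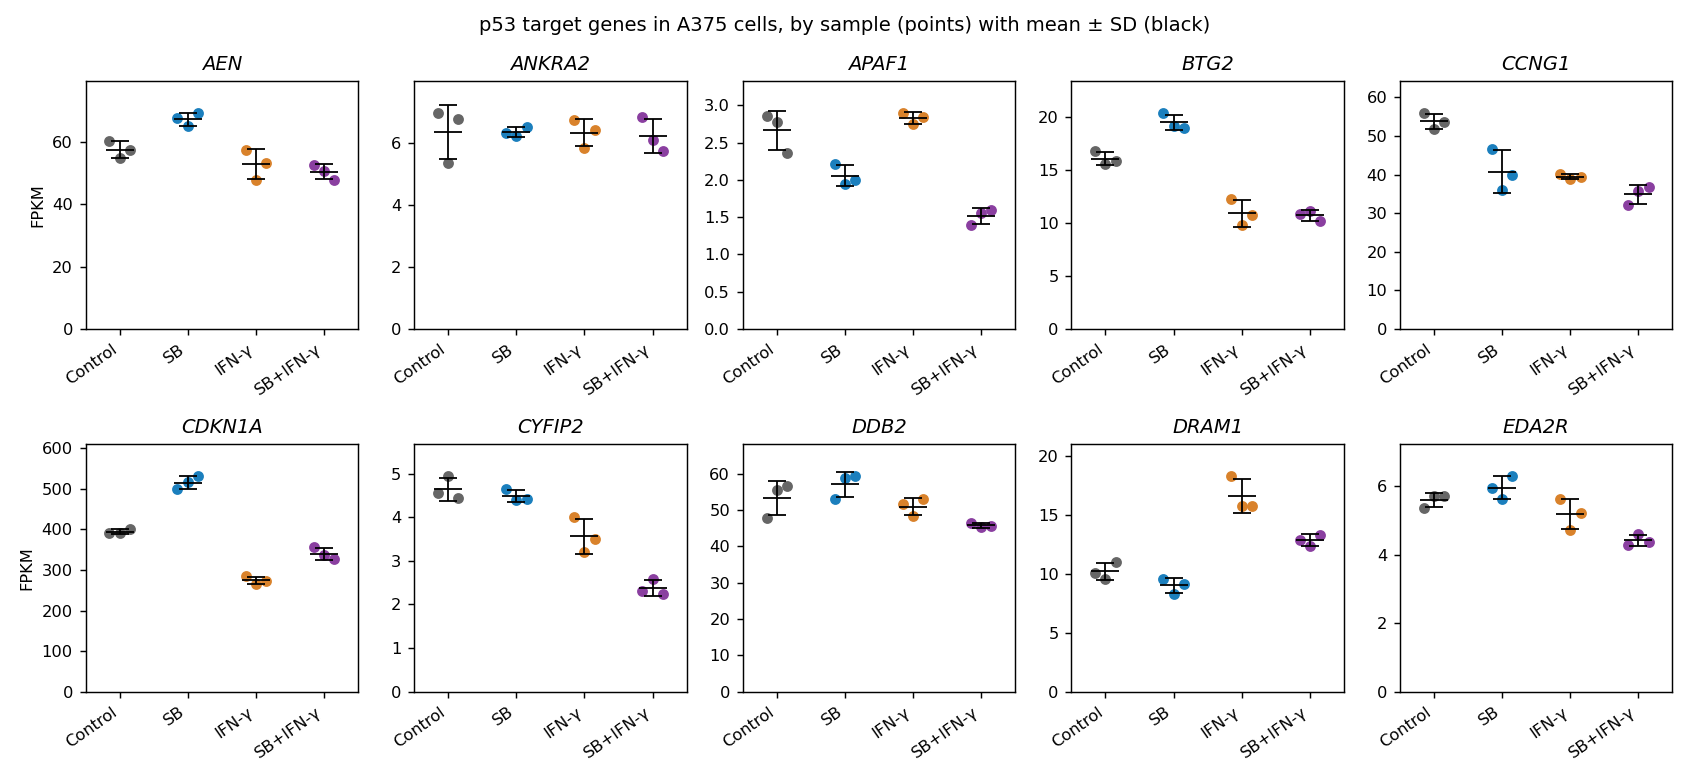
FPKM of the 10 p53 target genes (vertical axes, each from 0) in control, SB-3CT (SB), IFN-γ and SB-3CT with IFN-γ (SB+IFN-γ) samples; points are samples and black bars give the mean ± SD of 3 samples. CDKN1A takes 4 separate levels, DRAM1 is high in both groups with IFN-γ, and ANKRA2 lies between 5.33 and 6.95 FPKM in all 12 samples.

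CDKN1A took a separate level in each group. It was at 392, 390 and 402 FPKM in the controls, at 499, 516 and 532 FPKM with SB-3CT, at 285, 266 and 273 FPKM with IFN-γ, and at 356, 337 and 327 FPKM with both. The 4 groups did not overlap: SB-3CT alone was the highest, then the controls, then both agents, and IFN-γ alone was the lowest. BTG2 was at 16.7, 15.6 and 15.8 FPKM in the controls and at 20.3, 19.1 and 19 FPKM with SB-3CT. It was at 12.3, 9.77 and 10.7 FPKM with IFN-γ and at 10.8, 11.2 and 10.2 FPKM with both, so the latter 2 groups overlapped and lay below the others. AEN was at 60.2, 54.8 and 57.1 FPKM in the controls, at 67.5, 64.9 and 69.0 FPKM with SB-3CT, at 57.2, 47.8 and 53.2 FPKM with IFN-γ, and at 52.5, 50.6 and 47.7 FPKM with both. For AEN only SB-3CT alone stood apart from every other group.

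DRAM1 went the opposite way under IFN-γ. It was at 10.1, 9.59 and 11 FPKM in the controls, at 9.60, 8.33 and 9.16 FPKM with SB-3CT, at 18.3, 15.8 and 15.8 FPKM with IFN-γ, and at 12.9, 12.3 and 13.3 FPKM with both. The IFN-γ samples were the highest, those with both agents came next, and the groups without IFN-γ overlapped at the bottom. CCNG1 was highest in the controls, at 55.9, 51.9 and 53.6 FPKM. It was lower with SB-3CT (46.7, 35.9 and 39.8 FPKM), with IFN-γ (40.1, 38.8 and 39.5 FPKM) and with both (32.2, 35.7 and 36.8 FPKM). The control samples lay above all others, and the SB-3CT samples, which spread the most, overlapped with each of the remaining groups.

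APAF1 and CYFIP2, the lowest of the 10, were at their minimum with both agents. APAF1 was at 2.85, 2.78 and 2.36 FPKM in the controls, at 2.21, 1.95 and 2.00 FPKM with SB-3CT, at 2.89, 2.74 and 2.85 FPKM with IFN-γ, and at 1.40, 1.55 and 1.59 FPKM with both. CYFIP2 was at 4.55, 4.94 and 4.44 FPKM in the controls, at 4.65, 4.38 and 4.42 FPKM with SB-3CT, at 3.99, 3.20 and 3.49 FPKM with IFN-γ, and at 2.31, 2.59 and 2.24 FPKM with both. For both genes the combined treatment did not overlap with any other group. DDB2 and EDA2R moved less: DDB2 ranged from 45.3 to 59.3 FPKM and EDA2R from 4.28 to 6.29 FPKM, each with its lowest mean in the combined treatment (45.8 FPKM ± 0.649 and 4.41 FPKM ± 0.161, SD, n = 3). For DDB2 and EDA2R too the combined samples lay below all others, by a small margin. Their highest values were 46.5 and 4.59 FPKM, and the lowest in any other group were 47.9 and 4.72 FPKM. ANKRA2 was at 6.35, 6.34, 6.32 and 6.21 FPKM on average in the control, SB-3CT, IFN-γ and combined groups, and all 4 overlapped.

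The first comparison asked what SB-3CT does in cells without IFN-γ. CDKN1A rose to 1.31 times its control mean (log2 fold change 0.38, SE 0.05, adjusted p = 0.00596, limma), BTG2 to 1.21 times (0.26, adjusted p = 0.0238) and AEN to 1.17 times (0.22, adjusted p = 0.0297), while CCNG1 fell to 0.759 times (-0.40, adjusted p = 0.0342). Fold changes are differences between group means of the deposited values, log2(FPKM + 1), a scale on which low genes appear to change less than they do, and p-values are adjusted over all 4918 genes. In bulk RNA a change in every cell and a change in the share of cells that express a gene cannot be told apart. APAF1 was at 0.771 times its control mean without passing the threshold of 0.05 (-0.26, adjusted p = 0.0951, limma), and the remaining 5 genes had log2 fold changes between -0.16 and 0.10. In all, 4 of the 10 genes were called, 3 higher and 1 lower, where 12.2% of all genes were called, 5.37% higher and 6.87% lower. The groups did not overlap for 5 of the 10 genes, against 33.9% of all genes. The median log2 fold change was 0.04 over the 10 genes and -0.01 over all genes.

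CDKN1A was called in the same direction under each of the 15 alternative settings with an adjusted p, with log2 fold changes from 0.35 to 0.43. AEN was not called when any 1 of the 6 samples was left out (adjusted p = 0.0503 to 0.11, limma). BTG2 and CCNG1 each lost the call without any 1 of the 3 controls, without SB-3CT replicate 2 or without SB-3CT replicate 3. The adjusted p-values were then 0.0555 to 0.0893 for BTG2 and 0.0951 to 0.138 for CCNG1, and all 3 genes kept their direction throughout.

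**Figure D2:**
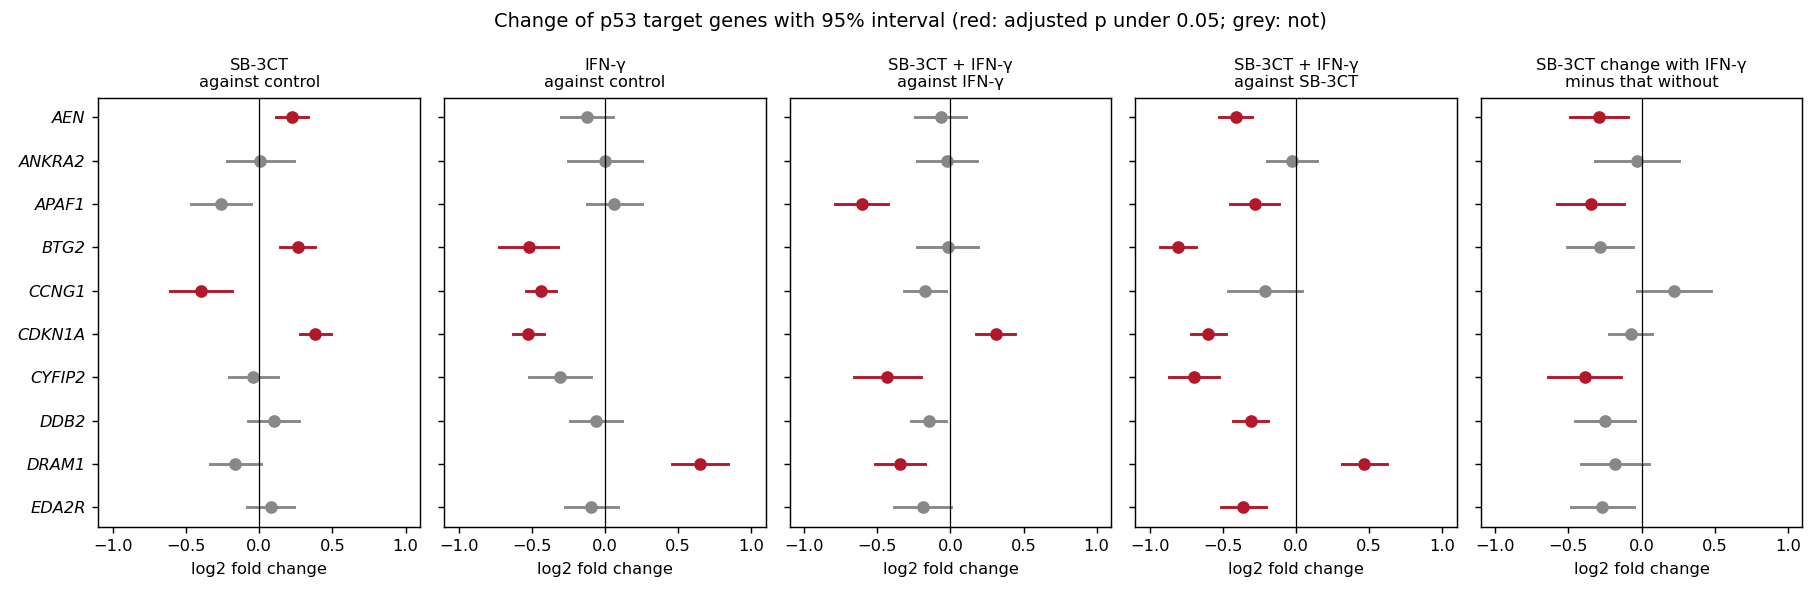
Log2 fold change (horizontal axes) of each p53 target gene with its 95% interval in the 4 comparisons of groups, and, in the last panel, the SB-3CT change with IFN-γ minus that without. Red marks an adjusted p under 0.05, which 3 genes reached upward and 1 downward with SB-3CT alone, and 1 upward and 7 downward when IFN-γ was added to SB-3CT.

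IFN-γ was then compared with the same 3 controls, so these values share samples with those above. CDKN1A fell to 0.695 times its control mean (log2 fold change -0.52, SE 0.04, adjusted p = 0.000815, limma), BTG2 to 0.680 times (-0.52, adjusted p = 0.00882) and CCNG1 to 0.733 times (-0.44, adjusted p = 0.00117). DRAM1 rose to 1.63 times (0.65, adjusted p = 0.00308, limma). CYFIP2 was at 0.767 times its control mean (-0.31, adjusted p = 0.0557, limma), and AEN, ANKRA2, APAF1, DDB2 and EDA2R had log2 fold changes between -0.12 and 0.07. Of the 10 genes 4 were called, 1 higher and 3 lower, where 19.5% of all genes were called, 8.46% higher and 11% lower. The groups did not overlap for 5 genes, against 36.9% of all genes. The medians were -0.11 over the 10 genes and -0.02 over all genes.

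The 4 calls under IFN-γ were kept under each of the 15 alternatives with an adjusted p, with ranges of -0.55 to -0.41 for CDKN1A, -0.60 to -0.45 for BTG2, -0.46 to -0.39 for CCNG1 and 0.58 to 0.70 for DRAM1. CDKN1A and BTG2 thus lay on opposite sides of the control with the 2 agents, while CCNG1 lay below it with either. CYFIP2 passed the threshold in 8 of the 15 alternatives, among them the one without IFN-γ replicate 1 (-0.38, adjusted p = 0.034, limma).

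The next comparison asked what SB-3CT changes in cells exposed to IFN-γ. With both agents CDKN1A rose to 1.24 times its level with IFN-γ alone (log2 fold change 0.31, SE 0.06, adjusted p = 0.00598, limma). APAF1 fell to 0.535 times (-0.61, SE 0.08, adjusted p = 0.00236), CYFIP2 to 0.668 times (-0.43, adjusted p = 0.0117) and DRAM1 to 0.773 times (-0.34, adjusted p = 0.00966). BTG2 and AEN, which were higher with SB-3CT alone, had log2 fold changes of -0.02 (95% interval -0.23 to 0.19) and -0.07 (-0.24 to 0.11) here. CCNG1 (-0.17, adjusted p = 0.0585), DDB2 (-0.15, adjusted p = 0.0569) and EDA2R (-0.19, adjusted p = 0.117) did not pass in limma. With 1 higher and 3 lower, 4 of the 10 genes were called, where 37.9% of all genes were called, 6.41% higher and 31.5% lower, so the count of the 10 lay near the background. The groups did not overlap for 7 genes, against 49% of all genes, and the medians were -0.16 over the 10 genes and -0.09 over all genes.

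The change in this comparison went with transcript length, as it did in the others that hold the combined treatment. Among genes with a mean of at least 1 FPKM, the median log2 fold change was 0.03 in the shortest 1053 genes (up to 2234 bases), -0.23 in the middle 1050 and -0.39 in the longest 1051 (from 4139 bases). With SB-3CT alone the 3 medians were 0.04, -0.03 and -0.10. APAF1 (7201 bases, 27 exons) and CYFIP2 (6451 bases, 32 exons) have the longest transcripts of the 10 genes. The other 8 run from 1815 bases (DDB2) to 3455 bases (EDA2R), and CDKN1A has 2117 bases. When each sample's trend with length was removed, a setting chosen after seeing the data, APAF1 stayed lower (-0.26, adjusted p = 0.0373, limma) and CDKN1A stayed higher (0.43, adjusted p = 0.00295), while CYFIP2 (-0.06, adjusted p = 0.616) and DRAM1 (-0.06, adjusted p = 0.505) were no longer called. What gives the trend was not tested.

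**Figure D3:**
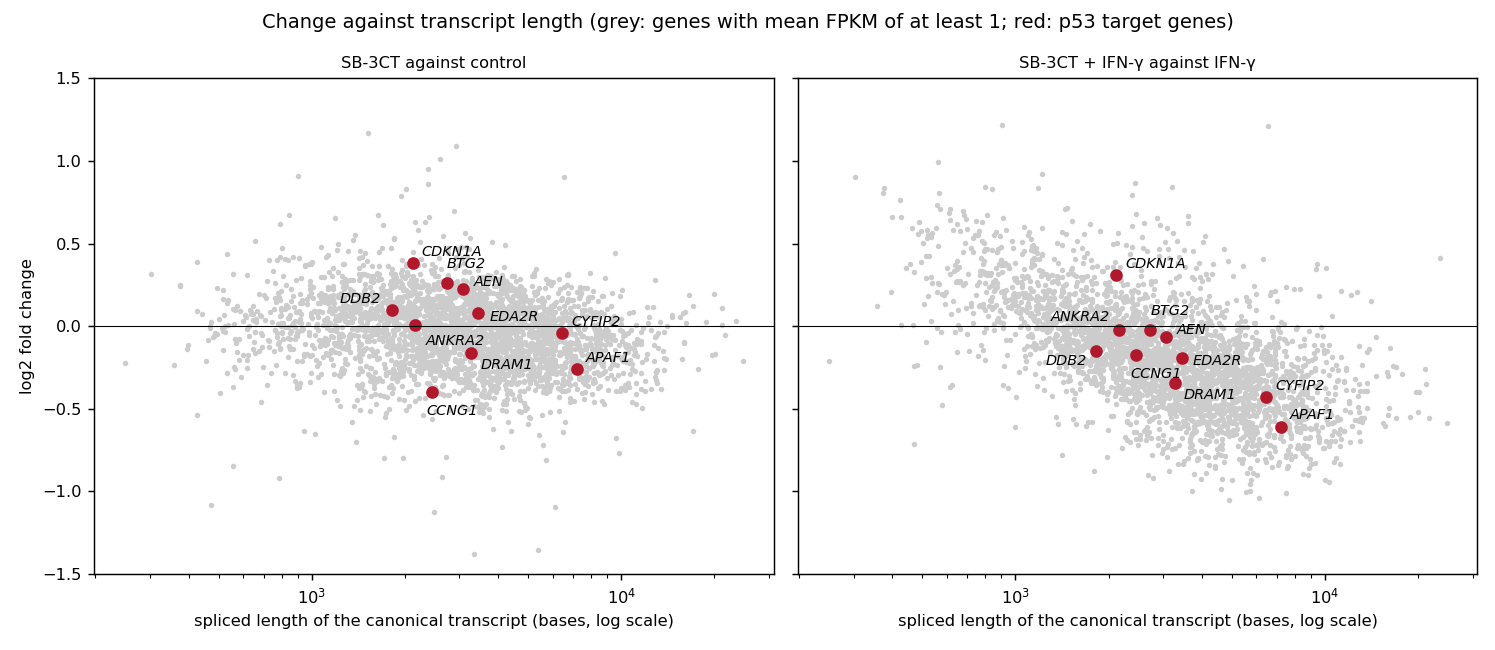
Log2 fold change (vertical axis) against spliced length of the canonical transcript in bases (horizontal log axis) for 3154 genes with a mean of at least 1 FPKM (grey) and the 10 p53 target genes (red), for SB-3CT against control (left) and SB-3CT with IFN-γ against IFN-γ (right); 2 points lie outside the axes. In the right panel the cloud falls with length, APAF1 and CYFIP2 lie at its long end and CDKN1A lies high among genes of its length.

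The scaling between samples also bore on this comparison. Median ratio scaling divides a sample by the median, over genes, of its ratios to the mean of the 12 samples. The factors were 0.865 to 0.874 with both agents and 0.987 to 1.09 in the other 9 samples, and the median change over all genes moved from -0.09 to near 0. On that scale CDKN1A rose by 0.56 (adjusted p = 0.00242, limma) and APAF1 fell by 0.44 (-0.44, adjusted p = 0.00493), as on the deposited scale. AEN and BTG2 turned to called rises (0.19, adjusted p = 0.0335, and 0.22, adjusted p = 0.0399, limma), and CYFIP2 (-0.24, adjusted p = 0.0503) and DRAM1 (-0.11, adjusted p = 0.209) were not called. With quantile normalization CDKN1A was at 0.04 (adjusted p = 0.749, limma), the only 1 of its 15 alternatives in which the rise was not called, and APAF1 was at -0.35 (adjusted p = 0.0111). Without replicate 3 of the combined treatment CYFIP2 was at -0.40 (adjusted p = 0.0524, limma).

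**Figure D4:**
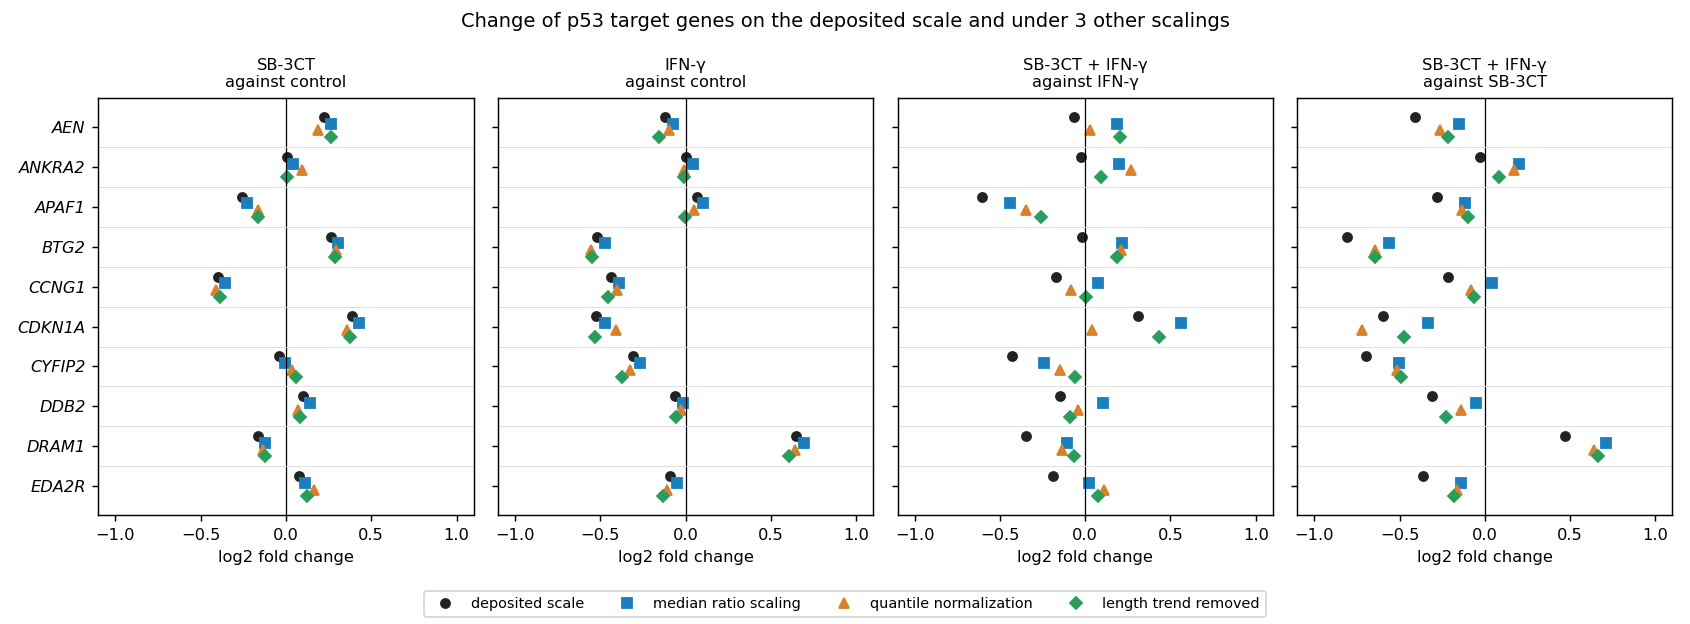
Log2 fold change (horizontal axes) of each p53 target gene in the 4 comparisons of groups on the deposited scale (circles), after median ratio scaling (squares), after quantile normalization (triangles) and with the trend with transcript length removed (diamonds). The marks lie close together for the comparisons with the control and spread where the combined treatment enters: for CDKN1A against IFN-γ they run from 0.04 to 0.56.

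Adding IFN-γ to SB-3CT moved most of the 10 genes. BTG2 fell to 0.550 times its level with SB-3CT alone (log2 fold change -0.81, SE 0.05, adjusted p = 0.000241, limma), CYFIP2 to 0.531 times (-0.70, adjusted p = 0.00109) and CDKN1A to 0.660 times (-0.60, adjusted p = 0.000547), and DRAM1 rose to 1.42 times (0.47, adjusted p = 0.00265). These 4 calls were kept under each of the 15 alternatives with an adjusted p. AEN (-0.41, adjusted p = 0.00154), EDA2R (-0.36, adjusted p = 0.00638), DDB2 (-0.31, adjusted p = 0.00464) and APAF1 (-0.28, adjusted p = 0.0206) also fell in limma, while CCNG1 (-0.21, adjusted p = 0.152) and ANKRA2 (-0.03, adjusted p = 0.786) did not pass. Of the 10 genes 8 were called, 1 higher and 7 lower, where 40.5% of all genes were called, 7.85% higher and 32.7% lower. The groups did not overlap for 8 genes, against 51.7% of all genes, and the medians were -0.33 over the 10 genes and -0.11 over all genes.

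The median over all genes moves by 0.11 under median ratio scaling in this comparison, to near 0, and AEN (-0.15, adjusted p = 0.0669), DDB2 (-0.05, adjusted p = 0.654), EDA2R (-0.14, adjusted p = 0.158) and APAF1 (-0.11, adjusted p = 0.247) were then not called in limma. On that scale BTG2 (-0.56), CYFIP2 (-0.50) and CDKN1A (-0.34) still fell, DRAM1 still rose (0.71), and the median of the 10 genes was -0.13. With the length trend removed APAF1 (-0.10, adjusted p = 0.248, limma) and EDA2R (-0.18, adjusted p = 0.0735) were not called, while AEN (-0.22) and DDB2 (-0.23) were. APAF1 was also not called without replicate 1 (-0.25, adjusted p = 0.0637, limma) or replicate 2 (-0.29, adjusted p = 0.0562) of the combined treatment. On the deposited scale CSPG4 (41.9 FPKM with SB-3CT and 27.7 FPKM with both), CDH2 (11.2 and 7.23 FPKM) and AXL (46.8 and 42.4 FPKM), of the 5 genes taken as melanoma markers, were also lower. EDNRB was at 4.57 FPKM with SB-3CT and 4.99 FPKM with both. The part of the markers in the result was not tested.

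Whether SB-3CT acts differently with and without IFN-γ was tested as the difference between its changes, over all 12 samples. The difference was -0.39 for CYFIP2 (SE 0.11, adjusted p = 0.03, limma), -0.35 for APAF1 (SE 0.10, adjusted p = 0.0357) and -0.29 for AEN (SE 0.09, adjusted p = 0.0414). For BTG2 it was -0.28 (adjusted p = 0.0679, limma). Thus 3 of the 10 genes were called, 0 in the higher and 3 in the lower direction under IFN-γ, where 22.3% of all genes were called, 4.74% higher and 17.6% lower. For CDKN1A the difference was -0.08 (95% interval -0.22 to 0.07, adjusted p = 0.459, limma): its rise with SB-3CT was 0.38 without and 0.31 with IFN-γ. With quantile normalization the difference for CDKN1A was called (-0.32, adjusted p = 0.0443, limma). None of the 3 calls was kept under median ratio scaling, quantile normalization or removal of the length trend, where CYFIP2 was at -0.24, -0.18 and -0.12, APAF1 at -0.21, -0.18 and -0.09 and AEN at -0.08, -0.16 and -0.06. Leaving out single samples gave 0 to 6 calls among the 10 genes, with 0 without control replicate 3, SB-3CT replicate 3, IFN-γ replicate 1 or 3, or combined replicate 3, and 6 without IFN-γ replicate 2. The calls over all genes also moved, with 724 to 921 in the fits that gave 0 and 1450 in the fit that gave 6. CCNG1 had a called positive difference under median ratio scaling (0.43, adjusted p = 0.0189, limma), with the length trend removed (0.39, adjusted p = 0.0407) and without SB-3CT replicate 1 (0.32, adjusted p = 0.0332).

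Other genes of the pathway were taken from lists written by hand: 39 of 41 listed genes that p53 is known to activate, 24 of 25 known regulators of p53, and 39 cell cycle genes that are known to be lowered when p21 lets the DREAM repressor complex form. BRCA1, AURKA and CHEK1 stand in both of the latter lists. The lists were written with earlier results of these data known. With SB-3CT alone, 9 of the 39 other activated genes rose (23.1%) and 2 fell (5.13%), where 5.37% of all genes rose and 6.87% fell. Their median was 0.06 beside -0.01 for all genes. The largest rises were those of ATF3, a stress-induced transcription factor (4.07 FPKM ± 0.168 in the controls and 7.79 FPKM ± 0.456 with SB-3CT, log2 fold change 0.79), CD82, a tetraspanin (0.58) and EPS8L2, an actin regulator (0.48). FAM198B (-0.61, at 1.21 FPKM in the controls) and CCDC90B (-0.26) fell. Among the regulators CSNK1D, a kinase, rose (0.28) and EEF1E1, a cofactor of p53 activation by DNA damage, fell (-0.30), and 22 of 24 did not pass. Of the p21-DREAM genes 5 rose and 7 fell, with a median of -0.10. CDT1, which licenses replication (0.54), and CDC20, an activator of the anaphase-promoting complex (0.32), rose, and the cytokinesis genes ANLN (-0.52) and ECT2 (-0.47) fell. CCDC90B, CSNK1D, ANLN and ECT2 lost the call without any 1 of the controls or without SB-3CT replicate 2 or 3, and EEF1E1 without control replicate 1 or 2 or SB-3CT replicate 2 or 3, with adjusted p-values of 0.0577 to 0.145 in limma. CCDC90B was also not called with the length trend removed (adjusted p = 0.0666).

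With IFN-γ alone, 6 of the 39 other activated genes rose (15.4%) and 7 fell (17.9%), where 8.46% of all genes rose and 11% fell, and their median was -0.07. CSF1, a macrophage growth factor, rose from 3.68 FPKM ± 0.236 to 34.4 FPKM ± 2.97 (log2 fold change 2.91), ATF3 rose to 13.9 FPKM ± 0.484 (1.55) and BBC3, the death protein PUMA, rose from 17.6 FPKM ± 5.51 to 34.2 FPKM ± 1.80 (0.96). FAM198B (-0.87), FAM210B (-0.43) and CMBL (-0.43) fell. Regulators of p53 gave 0 rises and 2 falls, those of EEF1E1 (-0.39) and CDK5 (-0.29), and under median ratio scaling they gave 3 rises and 0 falls. Of the p21-DREAM genes 8 rose (20.5%) and 1 fell (median 0.13 beside -0.02 for all genes), with CDT1 (0.50) and the helicase BRIP1 (0.47) rising most and CCNB1, cyclin B1, falling (-0.19). The count was 19 rises and 0 falls under median ratio scaling, 12 and 1 with quantile normalization, and 10 and 2 with the length trend removed. Over all genes these scales gave 596 rises and 500 falls, 507 and 658, and 471 and 835. BBC3, FAM210B, CMBL, EEF1E1, BRIP1 and CCNB1 lost the call in most fits that left out 1 control or IFN-γ sample, and CDK5 without control replicate 2, with adjusted p-values of 0.0503 to 0.108 in limma. Under median ratio scaling EEF1E1 (adjusted p = 0.1), CDK5 (adjusted p = 0.0571) and CCNB1 (adjusted p = 0.201) were not called in limma either.

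With SB-3CT added to IFN-γ, 0 of the 39 other activated genes rose and 7 fell (17.9%), where 6.41% of all genes rose and 31.5% fell. The median was -0.13 beside -0.09 for all genes, and the falls were led by E2F7 (-0.62), CSNK1G1 (-0.54) and ASCC3 (-0.54). This count turned to 9 rises and 3 falls under median ratio scaling, to 7 and 3 with quantile normalization and to 6 rises and 0 falls with the length trend removed. Over all genes these scales gave 811 rises and 760 falls, 542 and 714, and 449 and 445. Of the p53 regulators 2 rose, EEF1E1 (0.30) and CDK5 (0.17), and 15 fell (62.5%), led by BRCA1 (-0.82) and the p53 kinase DYRK2 (-0.68). Of the regulators 5 rose and 6 fell under median ratio scaling, 4 and 7 with quantile normalization, and 3 and 2 with the length trend removed. Of the 3 lists the p21-DREAM genes had the lowest median: 27 of 39 fell (69.2%) and 2 rose, with a median of -0.51. Whether these falls follow the level of CDKN1A was not tested. CENPF, a kinetochore protein, went from 10.3 FPKM ± 1.07 with IFN-γ to 4.86 FPKM ± 0.566 with both (-0.95), and ECT2 fell by 0.89 (-0.89). CKS1B, a subunit of cyclin-dependent kinases, rose from 303 FPKM ± 11.7 to 433 FPKM ± 3.58 (0.52) and CCNB1 rose (0.21). On other scales the median was nearer 0, at -0.27 with 22 of the 39 lower and 6 higher (median ratio scaling), -0.35 with 22 lower and 2 higher (quantile normalization), or -0.26 with 20 lower and 3 higher (length trend removed). Without single samples EEF1E1 (without IFN-γ replicate 1 or 3, or combined replicate 2 or 3), CDK5 (without any 1 of the 6), ASCC3 (without IFN-γ replicate 1 or 3) and CCNB1 (without IFN-γ replicate 3 or combined replicate 2 or 3) lost their calls, with adjusted p-values of 0.0513 to 0.148 in limma. With the length trend removed E2F7, CSNK1G1, ASCC3, DYRK2, EEF1E1 and CDK5 were not called (adjusted p = 0.0796 to 0.577, limma), nor with quantile normalization CSNK1G1, ASCC3 and CCNB1 (adjusted p = 0.0581 to 0.104).

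**Figure D5:**
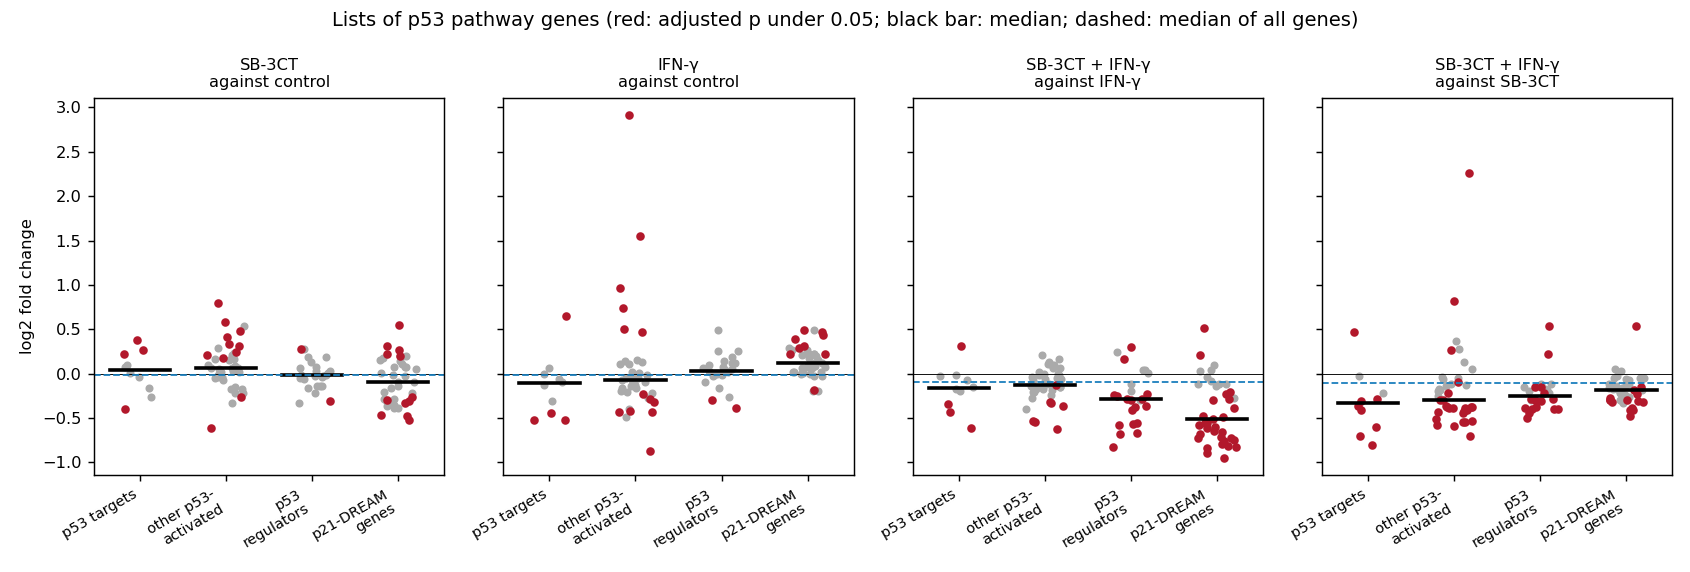
Log2 fold change (vertical axis) of the 10 p53 target genes and of the lists of other p53-activated genes (39), p53 regulators (24) and p21-DREAM genes (39) in the 4 comparisons of groups. Each point is a gene, red where the adjusted p was under 0.05, black bars are list medians and the dashed line is the median of all genes; with SB-3CT added to IFN-γ the p21-DREAM genes have the lowest median, -0.51 on the deposited scale shown and -0.35 to -0.26 on the 3 others.

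With IFN-γ added to SB-3CT, 3 of the 39 other activated genes rose (7.69%) and 22 fell (56.4%), where 7.85% of all genes rose and 32.7% fell, and the median was -0.29 beside -0.11 for all genes. CSF1 (2.26), ATF3 (0.82) and CD82 (0.27) rose, and CMBL (-0.70), CPE (-0.59) and the receptor kinase EPHA2 (-0.58) fell. Under median ratio scaling 5 of these activated genes rose and 9 fell, where 675 of all genes rose and 504 fell. Of the regulators 2 rose, CDKN2A (0.54) and EEF1E1 (0.22), and 14 fell (58.3%), led by DYRK2 (-0.50) and AATF (-0.45), against 2 and 2 under median ratio scaling. Of the p21-DREAM genes CKS1B rose (0.54) and 14 fell (35.9%, near the share of all genes), led by the spindle checkpoint kinases BUB1 (-0.47) and BUB1B (-0.41), and 2 rose and 0 fell under median ratio scaling. Calls were lost when a sample was left out for CD82 (any SB-3CT sample, or combined replicate 1 or 3), BUB1 (combined replicate 1 or 3), BUB1B and EEF1E1 (combined replicate 2), with adjusted p-values of 0.0506 to 0.106 in limma. BUB1 and BUB1B were called on none of the 3 other scales (adjusted p = 0.0738 to 0.148, limma), and EEF1E1 was not called with the length trend removed (adjusted p = 0.109).

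The pattern of CDKN1A over the 12 samples was compared with that of 3176 other genes with a mean of at least 1 FPKM. The most alike by Pearson correlation of the log2 values were ALDH2 (0.97), ADI1 (0.97), AK1 (0.96), DDA1 (0.96) and the antisense RNA ATP6V1B1-AS1 (0.96), whose reads cannot be told from those of its sense partner because no strand setting is stated. ALDH2, mitochondrial aldehyde dehydrogenase, was at 15.5, 21.4, 11.9 and 13.7 FPKM on average in the control, SB-3CT, IFN-γ and combined groups, the same order as CDKN1A. Among the other p53 target genes BTG2 was the most alike (0.91, rank 45) and DRAM1 the least (-0.93, rank 3163), with AEN at 0.84, DDB2 and EDA2R at 0.60, CYFIP2 at 0.52, CCNG1 at 0.23, ANKRA2 at 0.12 and APAF1 at -0.27. These points share libraries and treatment groups, so the correlations describe the order of the groups.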

How the data were processed

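RNA-seq of 12 samples of A375 cells was used. Per the submitters' processing notes and the study's methods, the authors aligned paired-end reads to hg19 with HISAT2 2.0.5 and computed FPKM with StringTie 1.3.3. The deposited values fit log2(FPKM + 1) and were used on that log2 scale, since undoing the logarithm and subtracting the 1 gives FPKM that sum to between 121928 and 129692 per sample. The library type, strand setting and read numbers were not given in the sources used here, so no counting error is given. Columns were assigned to samples by their names, with NC taken as control, and none was unused (0). The planned tests assumed FPKM, and since the values were already logarithms that step was omitted.

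Moderated two-sided tests came from limma 3.58.1 (R 4.3.3), with linear models and empirical Bayes with a mean-variance trend, fitted to all 4918 genes in only the 3 + 3 samples being compared. The difference between the SB-3CT changes was the interaction over all 12 samples. Genes were called at a Benjamini-Hochberg adjusted p under 0.05. The smallest p of an exact permutation test of 3 samples against 3 is 0.1, so none was run. The functions were tested on simulated data.

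The 10 genes and the lists were chosen with earlier results of these data known. The lists are hand-made from general knowledge, not published ones. All 10 genes are named, and, per comparison, the 3 largest called rises and falls among other p53-activated genes and the 2 largest in each of the other lists. The 5 genes most like CDKN1A, CXCL10, CD274 and cell type markers were also fixed, and CD274, the PD-L1 gene, was at 21.7 FPKM ± 2.32 with IFN-γ and at most 0.808 FPKM in every sample without it. Positions and lengths came from GENCODE release 44 mapped to GRCh37, with 4458 symbols found as written and 417 by an older name, so that 99.1% had a length.

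Alternatives were the pseudocount 0.1, only genes averaging at least 1 FPKM, median ratio scaling, quantile normalization, all 4 groups in 1 fit, the replicate number as a block, eBayes without trend or with robust estimation, a fold change over 1.5 with unadjusted p under 0.05, leaving out single samples, and, added after seeing the data, taking out the trend with transcript length in every sample.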

Additional observations from a re-analysis of the deposited data

Results flagged for a closer look

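The SB-3CT change differed with and without IFN-γ for the 13 genes given here (interaction over all 12 samples, limma, adjusted p under 0.05). Those from the lists were picked as the largest differences called by this test, so 13 is not a count among all genes named. Over all genes 22.3% were called, 4.74% higher and 17.6% lower. In the full lists 1 was higher and 10 lower among the 39 other activated genes. The counts were 1 and 9 among the 24 regulators, and 1 and 16 among the 39 p21-DREAM genes. Among the p53 target genes the difference on the log2 scale was -0.29 for AEN, -0.35 for APAF1 and -0.39 for CYFIP2. Among the other p53-activated genes it was 0.48 for FAM198B, -0.73 for ATF3, -0.65 for CSF1 and -0.65 for E2F7. Among the regulators of p53 it was 0.61 for EEF1E1, -0.53 for DYRK2 and -0.52 for EP300, and among the p21-DREAM genes it was 0.31 for CKS1B, -0.73 for DTL and -0.66 for CDT1. The median difference over all genes was -0.09. ATF3 was at 4.07, 7.79, 13.9 and 14.5 FPKM on average in the control, SB-3CT, IFN-γ and combined groups, and EEF1E1 at 48.3, 38.9, 36.8 and 45.5 FPKM. ATF3, E2F7, EEF1E1, DTL and CDT1 kept the call under each of the 20 alternatives with an adjusted p. The difference for CKS1B was 0.06 with quantile normalization (adjusted p = 0.571, limma) and 0.07 with the length trend removed (adjusted p = 0.415). FAM198B was at only 1.21, 0.446, 0.205 and 0.103 FPKM on average in the control, SB-3CT, IFN-γ and combined groups. At such levels the log2(FPKM + 1) scale understates changes, most of all in the groups with IFN-γ. The difference for FAM198B was not called with a pseudocount of 0.1 (0.66, adjusted p = 0.0913, limma). With the length trend removed those for CSF1 (-0.35, adjusted p = 0.0577), DYRK2 (-0.22, adjusted p = 0.208) and EP300 (-0.20, adjusted p = 0.142) were not called. The calls for AEN, APAF1 and CYFIP2 were lost on each of the 3 other scales.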

How the results depend on the processing

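Against a main count of 4 p53 target genes called with SB-3CT, 4 with IFN-γ, 4 with SB-3CT added to IFN-γ, 8 with IFN-γ added to SB-3CT and 3 for the difference, the rule of a fold over 1.5 with unadjusted p under 0.05 gave 0, 1, 1, 3 and 0. Median ratio scaling gave 4 for IFN-γ added to SB-3CT and 1 for the difference, quantile normalization gave 2, 5 and 1 for the last 3 comparisons, and removal of the length trend gave 1 for the difference. Leaving out each sample in turn gave 1 to 3 calls with SB-3CT and 0 to 6 for the difference. For SB-3CT added to IFN-γ a value that was not called turned to a called rise for AEN under median ratio scaling (0.19) and with the length trend removed (0.20), for BTG2 under median ratio scaling (0.22) and for ANKRA2 under quantile normalization (0.27, adjusted p = 0.0316, limma). Without being called, the sign turned there on at least 1 of these 3 scales for AEN, ANKRA2, BTG2, CCNG1, DDB2 and EDA2R (0.0027 to 0.21). It also turned for CYFIP2 with SB-3CT, ANKRA2 and APAF1 with IFN-γ, ANKRA2 and CCNG1 with IFN-γ added to SB-3CT, and ANKRA2, CDKN1A and DRAM1 for the difference, none called on the deposited scale or after the turn.

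Of 50 values of single p53 target genes (10 genes in 5 comparisons), 27 stayed on the same side of the threshold under every alternative with an adjusted p other than leaving out a sample, which does not include the fold rule, and 35 did when each sample was left out. Of 56 values of named genes from the other lists, 34 and 36 did.

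Over all genes, the 602 calls with SB-3CT became 259 with the replicate number as a block, 49 under the fold rule and 73 to 912 when a sample was left out, with 912 without SB-3CT replicate 1 and at most 88 without any other. The 958 with IFN-γ became 234 under the fold rule and as few as 562 (without control replicate 3). The 1862 with SB-3CT added to IFN-γ became 367 under the fold rule, 894 without the length trend and 1230 without IFN-γ replicate 3. The share of higher calls there was 315 of 1862 on the deposited scale, and median ratio scaling gave 811 higher and 760 lower. The 1994 with IFN-γ added to SB-3CT became 1179 (675 higher) under median ratio scaling, 278 under the fold rule and 1277 without the length trend. The 1099 for the difference became 641, 640, 161 and 418 under median ratio scaling, quantile normalization, the fold rule and removal of the length trend. When a sample was left out they became 678 (without control replicate 2) to 1450 (without IFN-γ replicate 2).

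Same-numbered samples did not deviate together in all pairs (correlations of -0.39 to 0.17 over the 4 comparisons). This cannot show whether they shared a culture or a batch, and the labels give only the number. With the replicate block 3, 4, 4, 7 and 3 p53 target genes were called. The number of samples and unknown read numbers limit what can be seen for low genes such as APAF1.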
